A study of Homo sapiens with 6 samples.

Results

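The chaperones and disulfide-forming enzymes of the endoplasmic reticulum (ER) were followed in AsPC-1 cells, an established human pancreatic adenocarcinoma line. They are the 42 genes on a list of 43 names, in which ERO1A also stands under its older name, and all 42 were found by symbol among the 26228 rows of the expression table. A group of 3 libraries came from cells kept for 24 h without serum in the presence of DON, short for 6-diazo-5-oxo-L-norleucine. DON resembles glutamine and blocks enzymes that use it. The other 3 came from cells given vehicle for the same 24 h, also without serum. No dose is given in the labels. They do not say whether replicates were separate cultures, so each p-value rests on a spread between libraries that may be technical. Levels are FPKM, which corrects reads for transcript length and library size, so different genes can be set side by side.

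Proteins that enter the secretory pathway fold inside the ER. Hsp70-type and Hsp90-type chaperones hold unfolded chains, J-proteins bring clients to the Hsp70 and start its ATP cycle, and exchange factors release the nucleotide. Lectin chaperones bind glycoproteins by their trimmed N-glycans. Disulfide isomerases form and shuffle cysteine bonds and are reoxidised by ERO1 oxidases, while prolyl isomerases turn the bonds before proline. When unfolded proteins build up, the sensors IRE1, PERK and ATF6 start the unfolded protein response, in which XBP1, ATF6 and ATF4 switch on many of these genes. The pancreas and its tumours secrete much protein, and the hexosamine pathway, which supplies the sugar for N-glycans, uses glutamine.

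The libraries held markers of epithelial cells, which do not by themselves establish a pancreatic origin. EPCAM stood at 928 to 1201 FPKM with DON and 966 to 1172 FPKM with vehicle, and KRT19, a ductal keratin, at 1527 to 2202 FPKM with DON and 1750.4 to 2377 FPKM with vehicle. Of the 12 epithelial markers checked, 10 were tested, 1 was called higher with DON (S100P) and 4 lower (MUC1, CEACAM6, TFF1 and TSPAN8). Levels over the 12 differed widely. KRT7 stood at 10.6 to 12.8 FPKM with DON and 12.1 to 15.4 FPKM with vehicle. TFF1, the lowest, stood at 2.06 to 3.14 FPKM with DON and 3.73 to 5.98 FPKM with vehicle. KRT8 and KRT18 had no valid value in some libraries and were not tested. Of 12 markers of immune, stromal, endothelial, acinar and islet cells, 11 stayed at or below 0.555 FPKM in every library, with CD3E, CPA1, PNLIP, INS and GCG at the floor of 0.01 FPKM. The exception, CD68, is a lysosomal protein and stood at 25.9 to 40.2 FPKM with DON and 16.6 to 28.02 FPKM with vehicle. In RNA from whole cultures, fewer cells of a type and less RNA per cell cannot be told apart. The first principal component of the log2 values held 61.6% of the variance and separated the groups. The second held 19.7% and set DON 1, vehicle 1 and vehicle 2 against DON 2, DON 3 and vehicle 3, a split that crosses the groups.

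Most ER folding genes rose with DON. The filter, 1 FPKM or more in 3 or more libraries, left 40 of the 42 for testing, and ERO1B passed it through its DON libraries alone. Of these, 30 (75%) were called higher and 1 lower (limma on log2(FPKM + 1), Benjamini-Hochberg adjusted p under 0.05 over all genes tested). Over all 11471 genes tested, 38.9% were called, 18.3% higher and 20.6% lower. All DON libraries stood above all vehicle libraries for 32 of the 40, where 24.9% of all tested genes did so, and below them for 2, where 26.5% did so. Groups without overlap in either direction made up 51.5% of all tested genes. The median log2 fold change was 1.19 over the 40 genes, against -0.01 over all tested genes. A called rise of at least 1 on the log2 scale was found for 23 of them, where 2.83% of all tested genes reached it. Ranked by log2 fold change among all tested genes, 7 of them were among the 20 largest rises and 15 among the 100 largest.

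Together the 42 genes held 1.65%, 1.62% and 1.65% of all summed FPKM in DON libraries 1 to 3, against 0.572%, 0.581% and 0.569% in vehicle libraries 1 to 3. The ratio of the means was 2.86. The 3 libraries of a group thus lay close together and the groups lay far apart. The chaperones made up 0.689% ± 0.0235 of all FPKM with DON and 0.182% ± 0.00958 with vehicle (mean ± SD, n = 3 each). The disulfide isomerases, as a group the largest share with vehicle, held 0.529% ± 0.0274 with DON and 0.244% ± 0.0105 with vehicle. The oxidases held 0.0185% ± 8.81e-04 with DON and 0.0154% ± 7.18e-04 with vehicle. These shares are descriptions of the summed level and were not tested. Values that were not valid in a library are missing from its sum, so the sums do not all cover the same genes. The abundant KRT8 and KRT18 are missing from DON 2, DON 3 and vehicle 3.

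**Figure D1:**
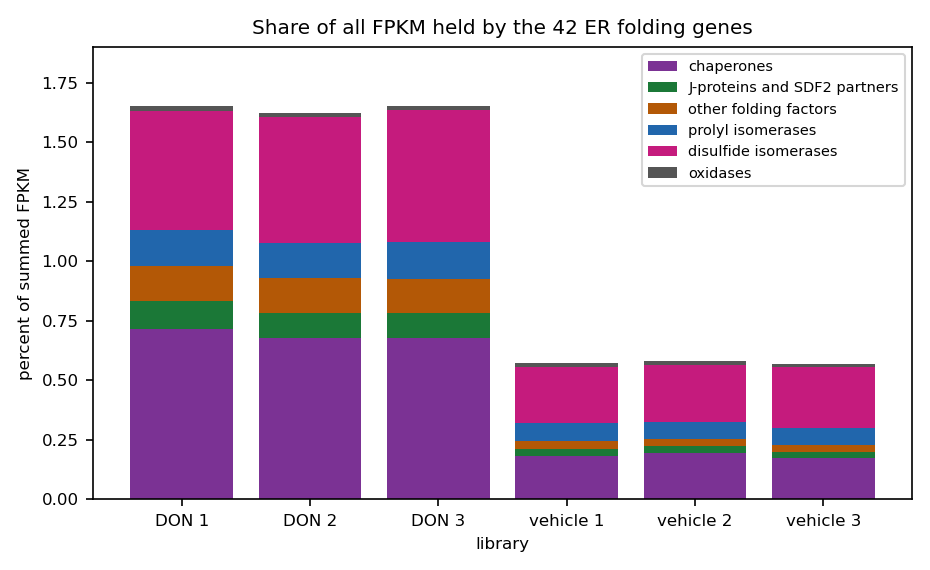
Stacked bars give the percent of each library's summed FPKM held by the 42 ER folding genes, split by class, for the 3 DON and then the 3 vehicle libraries. The bars reach 1.62% to 1.65% with DON and 0.569% to 0.581% with vehicle, and chaperones take the largest part of the DON bars.

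Calls were counted by class. Higher calls covered 5 of 5 chaperones (median log2 fold change 2.05), 6 of 7 J-proteins and SDF2 proteins (1.98) and 6 of 6 exchange, calcium-binding and other factors (1.82). They covered 4 of 4 tested prolyl isomerases (1.49). Among disulfide isomerases, 8 of 15 rose and 1 fell, with a median of 0.33. Among oxidases, 1 of 3 rose, with a median of 0.22 over the 3. The 1 that rose, ERO1B, passed the filter through its DON libraries alone. Over all tested genes 18.3% were called higher and 20.6% lower. Differences between classes were not tested.

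**Figure D2:**
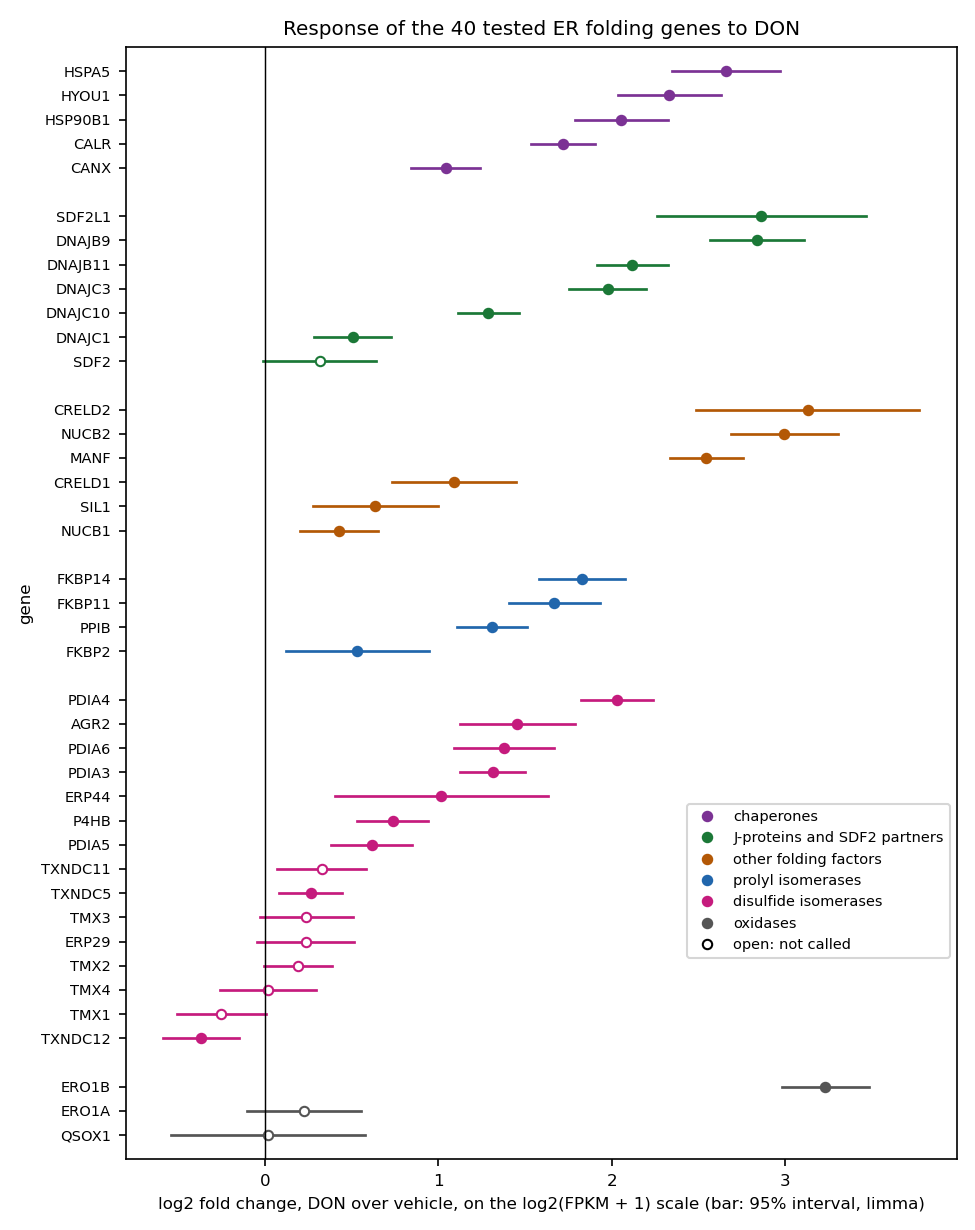
Points give the log2 fold change of each of the 40 tested genes, DON over vehicle, on the log2(FPKM + 1) scale, and bars the 95% interval from limma (n = 3 libraries per group). Filled points passed the adjusted p of 0.05, open points did not, and genes are grouped by class. All 5 chaperones lie to the right of 0, while the disulfide isomerases run from PDIA4 at 2.03 to TXNDC12 at -0.37.

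The ER stress response element (ERSE) is a promoter sequence through which, together with the factor NF-Y, ATF6 and XBP1 are known to act, and it is shown here because it stands before several of the genes that rose. The search was added after the calls had been seen. RefSeq promoter windows (build GRCh38.p14, 250 bases before to 50 after a transcript start) were found for 38 of the 42 genes. Each window was searched on both strands for CCAAT and CCACG with exactly 9 bases of any kind between them. The exact element was present for 7 of the 38 genes (18.4%), against 25 of 27305 genes with a window in all (0.0916%), or 0.0769% of 35116 windows. Among the 8647 tested genes with a window the share was 0.173%. The element was picked because it stands before several of these genes. A higher share among them was thus built into the choice, and the shares were not tested. The sites follow, read 5′ to 3′ on the strand of the gene, with the fixed letters in capitals. A site that starts with CGTGG holds the element on the opposite strand.
HSPA5, chr9:125241391-125241409, minus strand: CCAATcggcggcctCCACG
HSP90B1, chr12:103930216-103930234, plus strand: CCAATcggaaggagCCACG
HSP90B1, chr12:103930321-103930339, plus strand: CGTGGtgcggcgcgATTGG
CALR, chr19:12938384-12938402, plus strand: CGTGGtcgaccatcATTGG
CANX, chr5:179698778-179698796, plus strand: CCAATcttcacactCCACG
PDIA6, chr2:10812853-10812871, minus strand: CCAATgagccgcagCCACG
CRELD2, chr22:49918554-49918572, plus strand: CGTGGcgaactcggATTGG
ERO1B, chr1:236282183-236282201, minus strand: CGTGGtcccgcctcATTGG

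All 7 genes with the exact element were called higher with DON, with log2 fold changes from 1.04 for CANX to 3.23 for ERO1B and a median of 2.05. ERO1B is counted here although it passed the filter through its DON libraries alone. Of the 30 tested genes on the list whose window lacks it, 20 were called higher, with a median of 0.69. The difference between genes with and without the element was not tested. The related ERSE-II, ATTGG and CCACG with 1 base of any kind between them, was present for 3 of the 38 genes (7.89%). It was held by 0.0696% of all genes with a window and 0.15% of the tested ones. It stood at 2 places before HYOU1 and once each before SDF2L1 and NUCB1.
HYOU1, chr11:119057274-119057284, minus strand: CGTGGtCCAAT
HYOU1, chr11:119057380-119057390, minus strand: CGTGGtCCAAT
SDF2L1, chr22:21642114-21642124, plus strand: CGTGGaCCAAT
NUCB1, chr19:48900243-48900253, plus strand: CGTGGaCCAAT
All 3 were called higher, with log2 fold changes of 2.33 for HYOU1, 2.86 for SDF2L1 and 0.43 for NUCB1.

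The 200 bases before the start show how the elements lie in the promoters of the most abundant Hsp70 and Hsp90 of the ER and of HYOU1. Capitals mark the fixed letters of ERSE, ERSE-II and the UPRE core TGACGTGG, an element bound by XBP1 and ATF6, which overlaps the upstream ERSE-II of HYOU1.
HSPA5, chr9:125241344-125241543, minus strand: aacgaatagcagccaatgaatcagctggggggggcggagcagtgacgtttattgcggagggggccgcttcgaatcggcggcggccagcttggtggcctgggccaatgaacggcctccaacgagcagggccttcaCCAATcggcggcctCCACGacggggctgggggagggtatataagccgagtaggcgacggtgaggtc
HSP90B1, chr12:103930210-103930409, plus strand: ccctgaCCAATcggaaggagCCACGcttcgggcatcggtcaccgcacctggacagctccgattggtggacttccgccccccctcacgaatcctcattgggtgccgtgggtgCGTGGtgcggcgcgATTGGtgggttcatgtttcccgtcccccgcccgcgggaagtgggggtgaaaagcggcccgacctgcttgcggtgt
HYOU1, chr11:119057206-119057405, minus strand: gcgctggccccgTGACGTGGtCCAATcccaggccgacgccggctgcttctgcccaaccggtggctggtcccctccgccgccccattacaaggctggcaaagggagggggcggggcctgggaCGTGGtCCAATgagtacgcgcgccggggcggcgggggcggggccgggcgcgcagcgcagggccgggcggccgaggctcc
The UPRE core was present for 4 of the 38 genes, 10.5%, against 0.927% of all genes with a window and 1.21% of the tested ones. It stood before HYOU1, DNAJC10 and TXNDC5 and just after the start of TXNDC11. Of these 4, TXNDC11 was not called and the other 3 were called higher. The core of the element that ATF4 binds with partners, TGATGNAA, was present for 0 of the 38 genes. It was held by 4.46% of all genes with a window and 2.45% of the tested ones, and a lack was not tested. No match says only that these letters are not in this window, and a match was not tested as a site of binding.

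Across the table, 15 tested genes had an exact ERSE in a window, and 13 of them (86.7%) were called higher with DON. Among the tested genes whose windows lack it, 18.6% were called higher. The 15 include the 7 ER folding genes above, and the calls had been seen before the search. ERO1B, among them, passed the filter through its DON libraries alone. The difference between these shares was not tested. Apart from the 7 ER folding genes, 8 genes had the element and 6 of those rose. FICD, which modifies HSPA5 by AMPylation, stood at 6.87 ± 0.665 FPKM with DON and 1.08 ± 0.449 FPKM with vehicle. SERP1, a small protein that stabilises newly made membrane proteins at the translocon, stood at 145 ± 15.1 FPKM with DON and 51.1 ± 2.98 FPKM with vehicle, and XBP1 at 143 ± 17.4 FPKM with DON and 70.9 ± 6.498 FPKM with vehicle. ALG12, a mannosyltransferase of N-glycan assembly, TRIM5 and the initiation factor EIF2A also rose, 1.91-fold, 1.66-fold and 1.52-fold. SYNPO and TMEM120A were not called (log2 fold changes -0.202 and -0.62). The genes are not independent, since CRELD2 and ALG12 share 1 site between them, as do SERP1 and EIF2A. All 8 were named because they hold the element. The other elements were followed across the table in the same way. ERSE-II was held by 10 tested genes outside the list, of which 3 were called higher and 2 lower, with a median log2 fold change of 0.098. The UPRE core was held by 101, of which 36 were higher and 17 lower (median 0.16), and the ATF4 element by 212, of which 56 were higher and 38 lower (median 0.04).

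**Figure D3:**
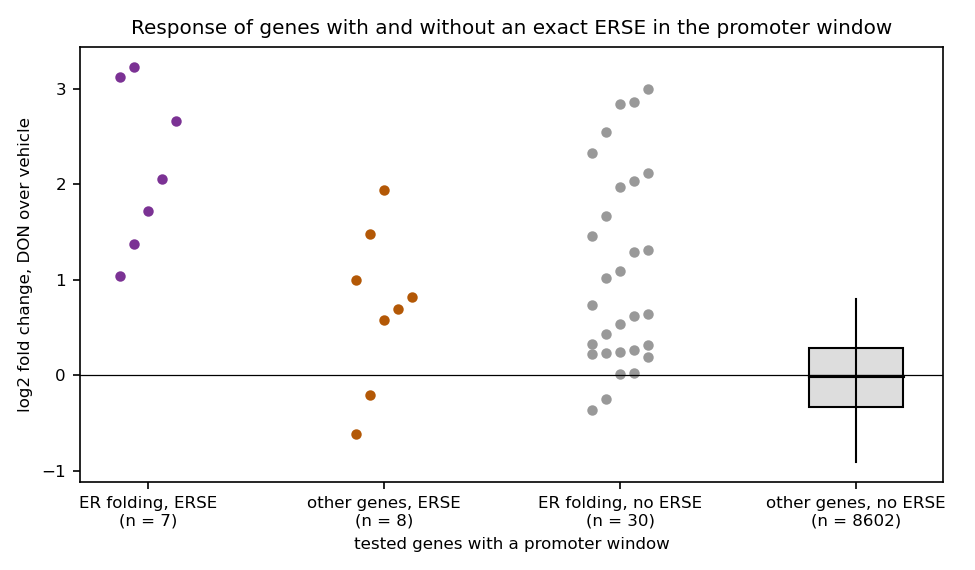
Points give the log2 fold change, DON over vehicle, of single tested genes with a promoter window, for ER folding genes with an exact ERSE, other genes with one and ER folding genes without one. The box gives the median and quartiles of the 8602 other genes without one and its line their 5th to 95th percentile, -0.91 to 0.796. All 7 ER folding genes with the element lie at or above 1.04.

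The general chaperones rose together. HSPA5, the Hsp70 of the ER and a brake on all 3 stress sensors, stood at 874, 739 and 697 FPKM in DON libraries 1 to 3, against 130.0, 129.9 and 104 FPKM in vehicle libraries 1 to 3. HSP90B1, the ER Hsp90 also called GRP94, stood at 1795, 1640.4 and 1548 FPKM with DON, against 419.8, 429.9 and 351 FPKM with vehicle. Each DON library exceeded each vehicle library by a wide margin, and HSP90B1 was the most abundant of the 42 genes in both groups. HSPA5 rose 6.35-fold by the ratio of means (log2 fold change 2.66 ± 0.13 SE, limma adjusted p = 4.11e-05) and HSP90B1 rose 4.15-fold (log2 fold change 2.05 ± 0.11 SE, limma adjusted p = 5.89e-05). HYOU1, a large Hsp70 relative that also acts as an exchange factor for HSPA5, stood at 261, 218 and 208 FPKM with DON, against 45.4, 49.5 and 39.2 FPKM with vehicle (log2 fold change 2.33 ± 0.13 SE, limma adjusted p = 5.39e-05).

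The lectin chaperones of the calnexin cycle also rose. CALR, the soluble calreticulin, stood at 578, 580.1 and 580.2 FPKM with DON, against 166, 183 and 178 FPKM with vehicle. Its DON libraries gave nearly the same value (SD 1.304 FPKM) and lay far above the vehicle libraries. CANX, the membrane-bound calnexin, stood at 482, 513 and 519 FPKM with DON, against 232, 259.6 and 243 FPKM with vehicle. With vehicle CANX exceeded CALR in every library, and with DON CALR exceeded CANX in every library. The ratio of CALR to CANX was 1.15 ± 0.0435 with DON and 0.717 ± 0.0138 with vehicle (mean ± SD, n = 3 each). CALR rose 3.303-fold and CANX 2.06-fold (limma adjusted p = 3.40e-05 and 2.15e-04).

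Most J-proteins, which stimulate the ATPase of HSPA5, rose. DNAJB9, which brings HSPA5 to the sensor IRE1, stood at 125, 121 and 123 FPKM in DON libraries 1 to 3, against 14.2, 19.2 and 16.2 FPKM in vehicle libraries 1 to 3 (log2 fold change 2.84 ± 0.11 SE, limma adjusted p = 2.56e-05). DNAJB11, which binds unfolded chains, stood at 143, 144 and 147 FPKM with DON, against 33.8, 34.5 and 29.6 FPKM with vehicle. DNAJC3, which binds clients in the lumen, rose 4.13-fold to 58.8 FPKM with DON, against 14.3 FPKM with vehicle. In these 3 genes the groups lay far apart. DNAJC10, a J-protein that also reduces disulfides, stood at 70.7 ± 2.33 FPKM with DON and 28.4 ± 0.672 FPKM with vehicle (mean ± SD, n = 3 each) and rose 2.49-fold. DNAJC1, a membrane J-protein near ribosomes, rose 1.46-fold (log2 fold change 0.51 ± 0.09 SE, limma adjusted p = 0.00609). The DNAJB9 gene shares exon sequence with THAP5 on the other strand, and THAP5 stood at 36.4 FPKM with DON and 11.3 FPKM with vehicle. Whether reads were counted by strand is not given in the sources used here. Reads from the shared sequence may thus have been counted for either gene, and its length was not measured.

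SDF2L1 and SDF2 are closely related ER proteins that form complexes with DNAJB11. SDF2L1 stood at 203, 135 and 114 FPKM in DON libraries 1 to 3, against 23.1, 21.8 and 14.1 FPKM in vehicle libraries 1 to 3. SDF2 stood at 33.4, 33.8 and 26.1 FPKM with DON, against 23.8, 28.3 and 22.1 FPKM with vehicle. DON library 1 was the highest for SDF2L1, yet all 3 DON libraries stood above all vehicle libraries, whereas the groups overlapped for SDF2. SDF2L1 rose 7.65-fold (log2 fold change 2.86 ± 0.26 SE, limma adjusted p = 3.03e-04). SDF2 was not called (log2 fold change 0.32, 95% interval -0.01 to 0.64, limma adjusted p = 0.109). The ratio of SDF2L1 to SDF2 was 4.81 ± 1.12 with DON and 0.794 ± 0.168 with vehicle. SDF2 shares exon sequence with SUPT6H on the other strand, which stood at 13.04 FPKM with DON and 13.1 FPKM with vehicle. With a term for the split along the second principal component, which was taken from these same values, SDF2 was called higher (limma adjusted p = 0.0292).

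Unequal changes were also seen in the pairs CRELD2 and CRELD1, proteins with EGF-like repeats, and NUCB2 and NUCB1, nucleobindins that bind calcium. CRELD2 stood at 212, 145 and 124 FPKM with DON, against 22.2, 18.9 and 11.7 FPKM with vehicle. CRELD1 stood at 13.5, 10.3 and 11.4 FPKM with DON, against 5.18, 5.84 and 3.999 FPKM with vehicle. Both rose, CRELD2 9.13-fold and CRELD1 2.35-fold, without overlap between groups. NUCB2, the precursor of the peptide nesfatin-1, stood at 145, 185 and 181 FPKM with DON, against 22.4, 17.9 and 21.2 FPKM with vehicle. NUCB1 stood at 59.6, 56.5 and 57.5 FPKM with DON, against 43.2, 46.96 and 38.3 FPKM with vehicle. NUCB2 was below NUCB1 in every vehicle library and above it in every DON library, and their ratio was 2.96 ± 0.452 with DON and 0.484 ± 0.0909 with vehicle. NUCB1 was called higher too, 1.35-fold (log2 fold change 0.43 ± 0.095 SE, limma adjusted p = 0.0122). CRELD2 holds the ERSE shown above, and the 200 bases before its start and before that of SDF2L1 are given for their position.
CRELD2, chr22:49918434-49918633, plus strand: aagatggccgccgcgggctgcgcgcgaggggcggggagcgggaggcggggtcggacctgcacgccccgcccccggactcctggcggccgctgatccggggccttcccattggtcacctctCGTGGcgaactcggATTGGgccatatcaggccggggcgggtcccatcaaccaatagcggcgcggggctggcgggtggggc
SDF2L1, chr22:21642102-21642301, plus strand: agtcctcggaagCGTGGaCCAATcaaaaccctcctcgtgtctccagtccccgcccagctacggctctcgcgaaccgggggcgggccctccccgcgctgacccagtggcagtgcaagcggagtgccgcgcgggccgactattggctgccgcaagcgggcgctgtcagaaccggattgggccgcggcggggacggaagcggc

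Of 8 pairs of related genes chosen for comparison, the difference within the pair did not overlap between groups in 7. Of all tested genes taken singly, 51.5% had groups without overlap, and the share over other pairs of genes was not computed. The measure was the difference in log2(FPKM + 1) between the 2 genes of a pair, taken within each library, and the value here is its mean with DON minus its mean with vehicle. It was 3.004 for ERO1B over ERO1A, 2.57 for NUCB2 over NUCB1, 2.54 for SDF2L1 over SDF2 and 2.04 for CRELD2 over CRELD1. It was 0.72 for PDIA4 over PDIA3, 0.68 for CALR over CANX and -0.33 for HYOU1 over HSPA5. Each of these 7 gave p = 0.1 in an exact two-sided permutation test, the smallest p that 3 against 3 libraries allow, and adjusted p = 0.114 over the 8 pairs, so none could pass 0.05. For TMX4 over TMX1 the groups overlapped (0.27, exact permutation p = 0.2, adjusted p = 0.2). The ratio of HYOU1 to HSPA5 was 0.298 ± 0.00181 with DON and 0.3696 ± 0.0176 with vehicle.

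**Figure D4:**
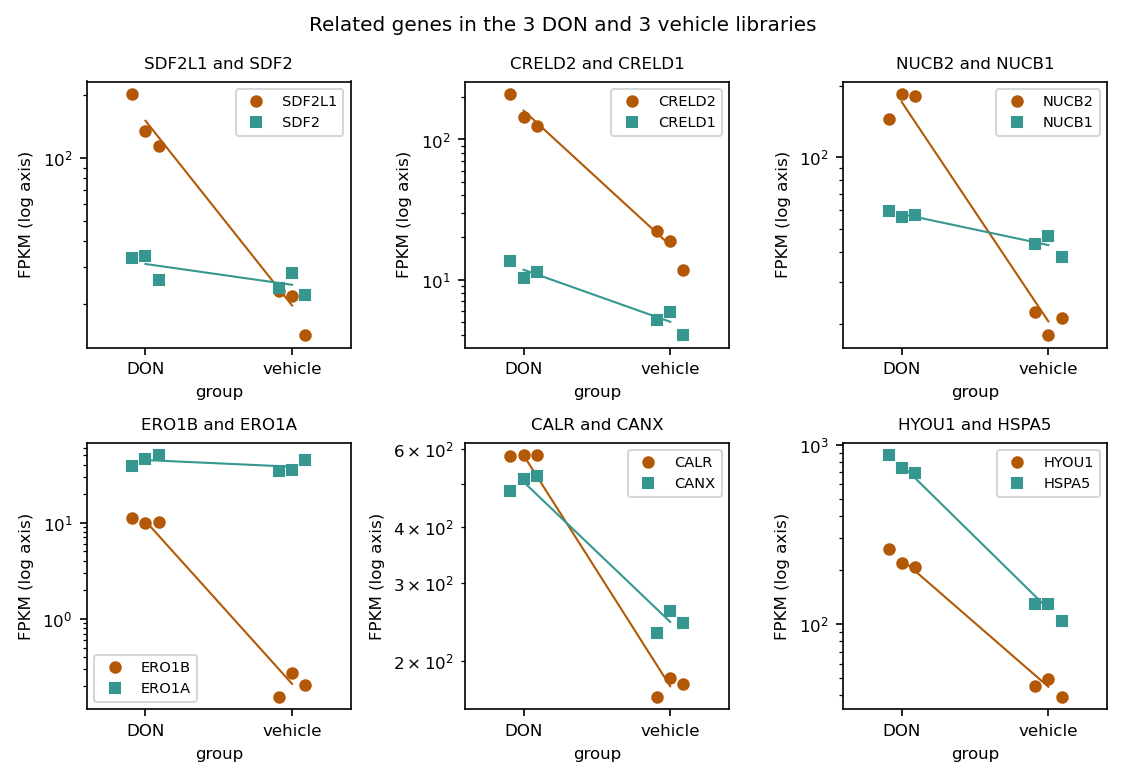
Each panel gives FPKM (log axis) of 2 related genes in the 3 DON libraries at the left and the 3 vehicle libraries at the right, with lines joining the group means. The lines of SDF2L1, CRELD2, NUCB2 and ERO1B are steeper than those of their partners, and the lines cross for SDF2L1 and SDF2, for NUCB2 and NUCB1 and for CALR and CANX.

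The other factors tied to HSPA5 rose as well. MANF, a factor that binds HSPA5 and can be secreted under ER stress, stood at 345, 368 and 355 FPKM in DON libraries 1 to 3, against 65.3, 55.1 and 60.6 FPKM in vehicle libraries 1 to 3 (log2 fold change 2.54 ± 0.09 SE, limma adjusted p = 1.61e-05). SIL1, an exchange factor for HSPA5, stood at 36.4, 28.6 and 25.3 FPKM with DON, against 19.6, 20.8 and 16.4 FPKM with vehicle. The groups did not overlap, but DON library 3 lay close to the vehicle libraries. SIL1 rose 1.595-fold (log2 fold change 0.64 ± 0.15 SE, limma adjusted p = 0.0162), a call that was lost without DON replicate 2 (adjusted p = 0.0507) and without a filter (0.0932).

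The classical disulfide isomerases rose by different amounts. PDIA4, also called ERp72, stood at 478, 428 and 438 FPKM in DON libraries 1 to 3, against 103, 116 and 108 FPKM in vehicle libraries 1 to 3. PDIA6, which also binds the sensor IRE1, stood at 625, 579.7 and 531 FPKM with DON, against 239, 239.5 and 190.1 FPKM with vehicle. PDIA3, the partner of calnexin and calreticulin, stood at 308, 318 and 310.0 FPKM with DON, against 126, 131 and 118 FPKM with vehicle. All 3 were well separated, with rises of 4.11-fold, 2.597-fold and 2.49-fold (limma adjusted p = 2.93e-05, 2.85e-04 and 8.41e-05). P4HB, the founding isomerase PDI and a subunit of collagen prolyl 4-hydroxylase, stood at 277, 292 and 308 FPKM with DON, against 164, 177 and 185 FPKM with vehicle and rose 1.67-fold (log2 fold change 0.74 ± 0.09 SE, limma adjusted p = 9.15e-04). PDIA5 rose 1.56-fold, with 24.7 ± 0.0982 FPKM with DON and 15.8 ± 1.87 FPKM with vehicle. TXNDC5, also called ERp46, stood at 108 ± 3.96 FPKM with DON and 89.3 ± 3.49 FPKM with vehicle and was called higher (log2 fold change 0.27 ± 0.08 SE, limma adjusted p = 0.0319). That call was lost when any library other than DON 1 was left out, at adjusted p from 0.0668 to 0.138. TXNDC5 also shares sequence with a read-through transcript, BLOC1S5-TXNDC5, at 0.9296 FPKM with DON and 2.41 FPKM with vehicle, and PDIA6 with ATP6V1C2 on the other strand, at 2.88 FPKM with DON and 0.574 FPKM with vehicle.

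AGR2, an isomerase of secretory epithelia that is needed for mucin folding, stood at 663, 794 and 841 FPKM in DON libraries 1 to 3, against 262, 249.7 and 328 FPKM in vehicle libraries 1 to 3. It was among the most abundant of the 42 genes with DON and rose 2.74-fold (log2 fold change 1.45 ± 0.14 SE, limma adjusted p = 4.14e-04). ERP44, which holds ERO1 enzymes in the early secretory pathway, stood at 10.7, 18.6 and 21.3 FPKM with DON, against 6.41, 6.76 and 9.73 FPKM with vehicle. Its lowest DON value lay just above its highest vehicle value. ERP44 rose 2.21-fold (log2 fold change 1.02 ± 0.26 SE, limma adjusted p = 0.0204), and the call was lost without a filter (adjusted p = 0.131) and without DON 2 (0.0764), DON 3 (0.0598), vehicle 1 (0.0692) or vehicle 2 (0.0676).

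The remaining thioredoxin-like proteins were not called or fell. TXNDC12, a small luminal oxidoreductase related to AGR2, stood at 27.9, 28.7 and 26.03 FPKM in DON libraries 1 to 3, against 32.7, 36.2 and 38.5 FPKM in vehicle libraries 1 to 3. All DON values lay below all vehicle values, and TXNDC12 fell by 0.37 on the log2 scale (limma adjusted p = 0.0192). The call was lost without DON 2 (adjusted p = 0.0575), DON 3 (0.0721) or vehicle 2 (0.0641). TXNDC12 shares exon sequence with BTF3L4 on the other strand, which stood at 9.62 FPKM with DON and 4.66 FPKM with vehicle, and with KTI12 on the same strand, which stood at 5.66 FPKM with DON and 6.99 FPKM with vehicle. None of the transmembrane TMX proteins was called, 0 of 4 by limma, and 0 had an unadjusted p under 0.05. TMX1 stood at 30.1 ± 3.68 FPKM with DON and 35.9 ± 1.78 FPKM with vehicle (log2 fold change -0.25, 95% interval -0.51 to 0.00, limma adjusted p = 0.107). TMX2 stood at 58.4 ± 4.204 FPKM with DON and 50.96 ± 0.6595 FPKM with vehicle, with an interval of -0.01 to 0.39. TMX3 had an interval of -0.03 to 0.51 and TMX4 one of -0.26 to 0.29. All DON values lay below all vehicle values for TMX1 and above them for TMX2, while the groups overlapped for TMX3 and TMX4. Groups without overlap in either direction made up 51.5% of all tested genes. ERP29, which lacks a redox-active site, stood at 149 ± 18.1 FPKM with DON and 126 ± 11.4 FPKM with vehicle (95% interval -0.04 to 0.52, limma adjusted p = 0.157), and was called higher without DON 1 (adjusted p = 0.0422). TXNDC11, a partner of the DUOX oxidases, had 3 DON values above its 3 vehicle values but was not called (log2 fold change 0.33, interval 0.07 to 0.58, limma adjusted p = 0.0513). It shares exon sequence with SNN on the other strand, which stood at 2.898 FPKM with DON and 9.74 FPKM with vehicle. With the term for the second principal component, TMX1 was called lower (limma adjusted p = 0.00652), and TMX2 and TXNDC11 were called higher (0.0304 and 0.0134). TXNDC11 was also called higher with a filter at 5 FPKM (limma adjusted p = 0.0475), with median-of-ratios scaling (0.0498), without DON 1 (0.0371) and without vehicle 3 (0.0255).

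The oxidases split sharply. ERO1B stood at 11.1, 9.78 and 10.2 FPKM in DON libraries 1 to 3, against 0.154, 0.272 and 0.205 FPKM in vehicle libraries 1 to 3. ERO1A, its widely expressed relative, stood at 38.3, 45.2 and 50.2 FPKM with DON, against 34.3, 35.5 and 44.3 FPKM with vehicle. ERO1B was below 1 FPKM in every vehicle library and was below ERO1A in every DON library, while the ERO1A groups overlapped. ERO1B rose by 3.23 on the log2(FPKM + 1) scale (SE 0.11, limma adjusted p = 1.61e-05), the third largest rise of all tested genes. It passed the filter through its DON libraries alone, so its rank leans on the level that admitted it. The call was kept without a filter. ERO1A was not called (log2 fold change 0.22, 95% interval -0.103 to 0.55, limma adjusted p = 0.238). The ratio of ERO1B to ERO1A was 0.236 ± 0.0467 with DON and 0.005601 ± 0.001795 with vehicle. QSOX1, a sulfhydryl oxidase of the Golgi and the cell surface, stood at 59.3, 42.4 and 35.5 FPKM with DON, against 50.8, 51.6 and 32.6 FPKM with vehicle and its groups overlapped widely (95% interval -0.54 to 0.58, limma adjusted p = 0.957). ERO1B over ERO1A, as a difference in log2 values, was 3.004 higher with DON, and 4.86 higher with a pseudocount of 0.1 in place of 1. QSOX1 was called higher with the term for the second principal component (limma adjusted p = 0.0478).

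The prolyl isomerases that were tested all rose. PPIB, cyclophilin B, stood at 455, 479 and 492 FPKM in DON libraries 1 to 3, against 182, 188 and 205 FPKM in vehicle libraries 1 to 3 and rose 2.48-fold (log2 fold change 1.31 ± 0.08 SE, limma adjusted p = 1.04e-04). FKBP14, which acts on collagens, stood at 12.5, 13.9 and 15.6 FPKM with DON, against 3.06, 3.23 and 3.33 FPKM with vehicle, and FKBP11, a membrane FKBP of secretory cells, at 66.4, 61.1 and 69.6 FPKM with DON, against 23, 18.6 and 18.5 FPKM with vehicle. Both showed wide gaps between groups, with rises of 4.36-fold and 3.28-fold. FKBP2 stood at 312, 258 and 229 FPKM with DON, against 220.4, 186 and 148 FPKM with vehicle, with its DON values just above its vehicle values. It rose 1.44-fold (log2 fold change 0.53 ± 0.17 SE, limma adjusted p = 0.0479), and the call was lost without an intensity trend (adjusted p = 0.0532), without a filter (0.209) and without DON 1 (0.103), DON 2 (0.114), vehicle 2 (0.106) or vehicle 3 (0.1004). FKBP7 and FKBP10 were too low to be tested. FKBP7 stood at 0.199, 0.7099 and 0.722 FPKM with DON, against 0.553, 0.533 and 0.467 FPKM with vehicle, and FKBP10, which acts on collagens, at 0.2, 0.3198 and 0.161 FPKM with DON, against 1.11, 0.672 and 0.411 FPKM with vehicle.

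**Figure D5:**
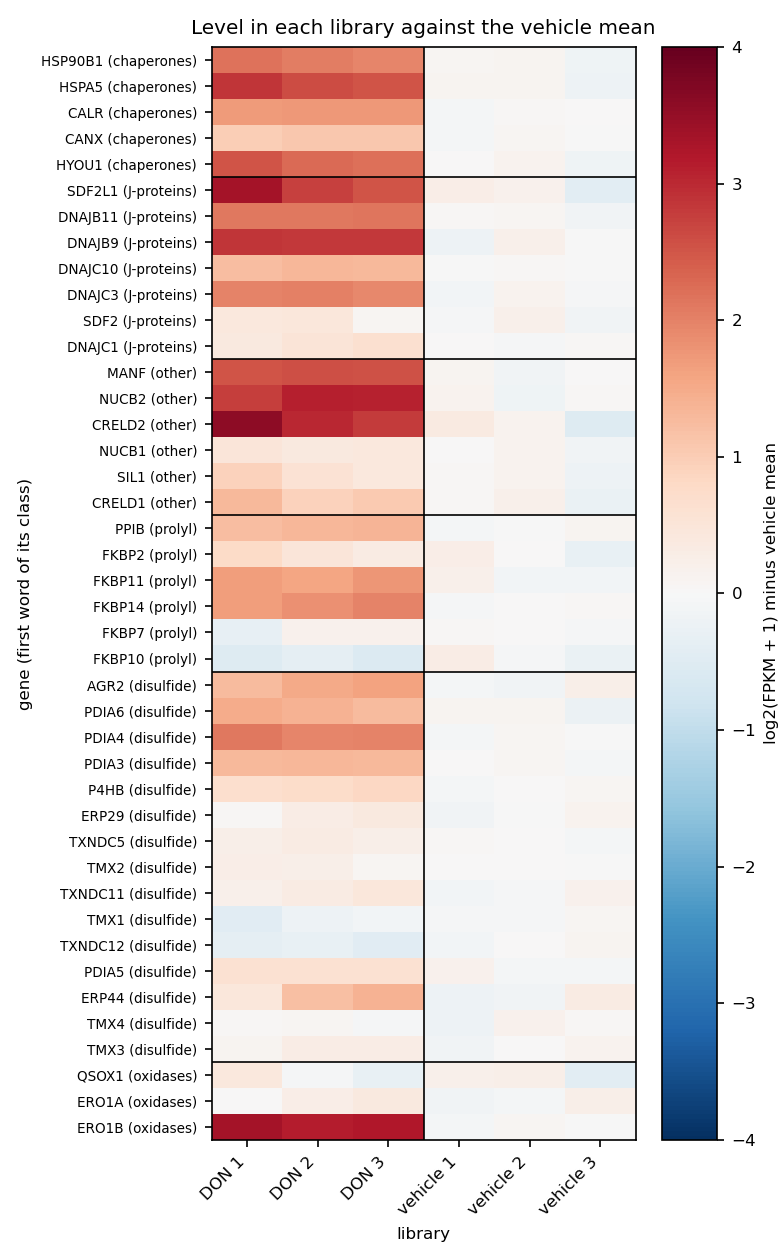
Colour gives log2(FPKM + 1) of each of the 42 genes in each library, minus the mean of that gene over the 3 vehicle libraries, with DON libraries at the left and vehicle libraries at the right. Within each class genes are ordered by their mean with DON. ERO1B, CRELD2, NUCB2, SDF2L1 and DNAJB9 have the largest mean log2 fold changes, and the TMX genes stay pale.

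Part of the other genes of ER folding rose as well. Of 32 tested genes of a list of 42, 12 rose and 2 fell, or 37.5% and 6.25%, against 18.3% and 20.6% of all tested genes. The median log2 fold change was 0.24. Without DON 2 the number called lower was 0, and without vehicle 2 it was 1. HSPA13, an Hsp70-like ATPase of the ER, rose 3.99-fold to 53.2 FPKM with DON, against 13.3 FPKM with vehicle. TXNDC15, a membrane thioredoxin-like protein, and the selenoprotein SELENOM rose 2.38-fold and 2.48-fold. UGGT1, which adds glucose back to misfolded glycoproteins and so returns them to calnexin and calreticulin, rose 2.07-fold, with 25.9 ± 1.16 FPKM with DON and 12.5 ± 0.674 FPKM with vehicle. Of the 2 genes that fell, SUMF1, which activates sulfatases, had a log2 fold change of -0.45 and SERPINH1, the collagen chaperone, one of -0.35. These 2 were named after their values were seen.

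Relatives of the same protein families that work in the cytosol, nucleus or mitochondria were counted beside them. Of 42 tested, 7 rose and 13 fell, or 16.7% and 30.95%, and the median log2 fold change was -0.13. The share that rose is near the 18.3% of all tested genes, where 20.6% were called lower. The number called lower was 7 without DON 3 and 8 without DON 2. Inducible Hsp70 genes fell most, HSPA1A to 15.3 FPKM with DON, against 46.1 FPKM with vehicle, and HSPA1B to 9.05 FPKM with DON, against 21.6 FPKM with vehicle. These near-identical copies share reads, so their separate values are uncertain. The cytosolic J-proteins DNAJB2 and DNAJC2 rose 2.01-fold and 1.92-fold. The cytosolic Hsp70 HSPA8 stood at 503 ± 45.5 FPKM with DON and 852 ± 60.99 FPKM with vehicle, the opposite direction to HSPA5, and was chosen for this contrast after its values were seen.

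The sensors and factors that act on these genes were mostly higher with DON. Of 11 tested, 9 were called higher and 1 lower, where 18.3% and 20.6% of all tested genes were. The sensor genes ERN1, which encodes IRE1, and EIF2AK3, which encodes PERK, rose 3.76-fold and 2.27-fold. ATF6 rose 1.496-fold (limma adjusted p = 0.0372), a call lost without DON 2, DON 3, vehicle 1 or vehicle 2 at adjusted p up to 0.117. ATF6 also lost its call without a filter (adjusted p = 0.165). XBP1, ATF4 and DDIT3, which encodes CHOP, rose 2.01-fold, 2.002-fold and 6.11-fold, and BHLHA15, a factor of secretory cells, rose 16.5-fold. The related membrane-bound factors CREB3 and CREB3L2 rose 1.67-fold and 2.57-fold, and the call of CREB3 was lost without a filter (adjusted p = 0.0982). ATF6B was not called (95% interval -0.17 to 0.32), and CREB3L1 fell to 5.48 FPKM with DON, against 16.4 FPKM with vehicle. FPKM gives neither the spliced form of XBP1 nor the cleaved form of ATF6.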

How the data were processed

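Poly(A) RNA was made into strand-directed libraries and sequenced as single reads of 75 bases, per the labels' protocols. The authors deposited FPKM values, 1 column per library, and the submitters' processing notes name STAR and the build hg19. How FPKM were computed, with which annotation, scaling and use of strand, is not given in the sources used here. Columns named control were taken as vehicle by their number. Absolute depth is unknown, so no counting interval is given. Steps between low values put the depth of the other 5 libraries at 1.25 to 1.696 times that of vehicle 1. The lowest value was 0.01 FPKM. In 41 rows a failure mark replaced 72 values, and these rows were left out of tests.

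Genes with at least 1 FPKM in 3 libraries were tested on log2(FPKM + 1) with limma 3.58.1 (R 4.3.3), DON against vehicle, with an intensity trend, two-sided and without a replicate block. That scale shrinks the change of low genes, while folds beside FPKM are ratios of means. Tables, motifs and plots used Python 3.11.15, pandas 2.3.3, numpy 2.4.6, scipy 1.17.1 and matplotlib 3.10.9, and the limma step was tested on simulated data. Members and lists were chosen with earlier results of these data known. The naming rule took all members, all regulators and from the other lists up to 4 called genes each, by size of log2 fold change, with a mean of 5 FPKM or more in the higher group. One listed gene, SELENOF, had no certain row and was not used, and MESD and SELENOM were read under older symbols. Exon overlaps come from GENCODE annotation of another build than the reads, so only names were used. The alternatives are given with the limits below. Members in pairs were compared by an exact permutation test.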

Additional observations from a re-analysis of the deposited data

How the results depend on the processing

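Alternatives changed the pseudocount (0.1), the filter (none, or 5 FPKM) or the scaling (quantile, or median of ratios), dropped the intensity trend, added a replicate block or a term for the sign of the second principal component, or left out 1 library. The number of genes called higher was 30 and ranged from 26 to 31 without single libraries, and 0 to 1 were called lower. Their median log2 fold change was 1.27 with the smaller pseudocount, 1.07 without a filter, 1.24 with the component term and 1.195 to 1.31 without single libraries. With the component term 2 disulfide isomerases were called lower (2 of all members) and 2 oxidases higher, and 12 of 42 relatives outside the ER were called higher. Calls rose over the whole table in that setting, to 2884 of 11471 genes higher and 3147 lower. The component term was derived from the tested values themselves, so its p-values are not those of a covariate known beforehand. Without single libraries 0 to 1 disulfide isomerases were called lower, the oxidase median was 0.16 to 0.34, 0 to 3 other ER folding genes were called lower, and of the relatives outside the ER 7 to 14 were called lower with a median of -0.157 to -0.0773. Without a filter the prolyl isomerase median was 0.92, since 2 low genes entered, and 4 relatives outside the ER were called higher. With a filter at 5 FPKM the median of those relatives was -0.0809. The cause of these shifts was not tested. Of 560 repeated values of the 40 tested members, 522 kept direction and side of the threshold, 21 lost the call (in 5 genes), 13 gained one (in 6 genes) and 4 changed sign. TMX4 was -0.0131 without DON 2 and -0.08704 without vehicle 1 (range over single libraries up to 0.0973), QSOX1 -0.1803 without DON 1 and -0.192 without vehicle 3 (up to 0.182), and ATF6B -0.003598 without DON 3. TMX4 and ATF6B were called in none of the alternatives, and QSOX1 only with the component term (adjusted p = 0.0478). All 8 pair differences kept their sign with the smaller pseudocount, both scalings and without single libraries. The number of genes with an ERSE that were called higher, an outcome chosen after seeing the data, was 12 to 13 without single libraries.

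Deviations of same-numbered libraries from their group means correlated at 0.25, -0.18 and 0.502 across genes. Those of differently numbered libraries correlated at -0.57 to 0.39. These values do not settle whether replicate numbers pair the libraries. With the replicate block 2551 genes were called higher and 2863 lower over the table, and 33 members higher and 1 lower. The block added calls of TXNDC11 (adjusted p = 0.01601), ERP29 (0.0432) and SDF2 (0.02799), all higher. Without DON 2, 1212 genes were called higher over the table and 1485 lower.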

Other observations

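Over the 40 tested genes, which share the same libraries, Pearson's r between log2 of the vehicle mean and the log2 fold change was -0.16. Of the 10 with the highest vehicle means, 9 were called higher, where 75% of the 40 and 18.3% of all tested genes were.

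With 1 of the 10 fixed letters of ERSE allowed to differ, 11 of the 38 ER folding genes with a promoter window (28.9%) held the element. It was held by 1.89% of all genes with a window and 2.73% of the tested ones. The added ER folding genes were CRELD1, DNAJC3, HYOU1 and SDF2L1, and all 11 with such a match were called higher with DON. Overlap of these looser matches with other elements was not checked. Among tested genes with this looser match, 67 of 236 were called higher (28.4%) and 50 lower, against 18.4% higher among genes without it. Outside the list of ER folding genes, 56 of 225 were called higher and 50 lower, with a median log2 fold change of -0.04.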
